A study of Mus musculus with 8 samples.

Results

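Integrins are adhesion receptors built from 1 alpha and 1 beta chain, and the messenger RNA of 9 such chains was followed in regulatory T cells (Tregs). The alpha chains were Itgae, Itga4, Itgal, Itgav and Itga6, and the beta chains Itgb7, Itgb1, Itgb2 and Itgb8. They were chosen by name, as the chains that T cells are known to pair, and each was represented by the probe set that the platform annotation assigns to that symbol alone. All 9 were measured, each by 1 probe set, among 19937 genes tested. The cells were FoxP3+ Tregs of wild-type (WT) mice and of mice labelled as Bcl6 knock-outs (KO, genotype Bcl6-/-), all stimulated through CD3 and CD28 for 16 h before RNA was taken. BCL6 is a transcriptional repressor of lymphocytes. Affymetrix whole-transcript arrays were hybridised from 100 ng of total RNA each, 4 of KO-labelled and 4 of WT cells. The labels number 2 preparations in each group and letter the 2 arrays of a preparation A and B. What separates preparations or letters (mice, cultures or extracts) is not said in the labels, nor are sex and age, so p-values speak only for the spread between these arrays, which may be technical.

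Neither chain of an integrin is carried to the cell surface alone, so the supply of a receptor depends on both partners. Integrin alpha E beta 7 (CD103) binds E-cadherin on epithelial cells and marks effector and tissue Tregs, and alpha 4 beta 7 binds MAdCAM-1 and leads T cells to the gut wall. Alpha 4 beta 1 binds VCAM-1 and fibronectin, alpha L beta 2 (LFA-1) binds ICAM-1 in the contact with an antigen-presenting cell, and alpha 6 beta 1 binds laminins. Alpha v beta 8 releases active TGF-beta from its latent complex, a step by which Tregs supply this cytokine.

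Some features of the whole data set touch every value below. The KO 1 arrays had a wider spread of log2 values (SD 1.84 and 1.87) than the KO 2 arrays (1.61 and 1.65) or the WT arrays (1.56 to 1.70), and WT 1B was the widest of WT. By their means over all arrays the members are bright, between the 91.1 and 98.6 percentile of genes, and bright genes read higher in wide arrays. The lowest of them, Itgae, is that bright only in the KO-labelled arrays (mean 10.58, against 7.50 in WT). Bcl6 itself was at 8.72 ± 0.24 in KO-labelled and 8.13 ± 0.25 in WT arrays (log2, SD, n = 4 each; adjusted p = 0.701 by limma), so its level does not check the labels, which do not say what part of the gene is missing. Averaged over 3 Y-linked genes (Uty, Kdm5d and Eif2s3y), log2 expression reached 4.62 to 4.80 in KO-labelled against 6.94 to 8.30 in WT arrays. The groups may thus differ in sex, which cannot be told apart from the genotype label in any difference below. The T cell identity of the samples was borne out by their markers: the 8 Treg and CD4 T cell genes, Foxp3, Cd4 and Cd3e among them, had means over the arrays of 10.21 to 11.93 log2, against array medians of 6.80 to 7.13.

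Itgae, the alpha E chain, was the member that differed most between the genotypes. Its log2 levels were 10.88 and 10.92 in KO 1A and KO 1B, 10.39 and 10.12 in KO 2A and KO 2B, and 7.40, 7.80, 7.35 and 7.47 in WT 1A, 1B, 2A and 2B. The lowest KO-labelled array thus lay 2.32 log2 above the highest WT array, a gap larger than the whole range of WT (0.45). The group means were 10.58 ± 0.39 and 7.50 ± 0.20 (SD, n = 4 each), and the fitted difference was 3.08 log2 (SE 0.29, adjusted p = 6.6e-04 by limma), an 8.43-fold rise. Only 5 of the 19937 genes, Itgae included, were higher in the KO-labelled arrays by as much or more. In RNA from a bulk of cells, more cells carrying the transcript and more transcript in each cell cannot be told apart.

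The Itgae difference was seen in both KO preparations, at 3.40 log2 over the WT mean in KO 1 and 2.75 in KO 2. With KO 1 left out, the fit with no random block gave 2.75, and with KO 2 left out 3.40. Both called Itgae, but each holds 1 KO preparation and counts its 2 arrays as independent, so these calls do not replicate the difference. The call was lost when preparation WT 2 was left out (2.98 log2, adjusted p = 0.218), a fit in which limma called 0 of all genes and 200 had an unadjusted p under 0.05. Over all 27 alternatives the difference was 2.75 to 3.40. Over the 21 of them that keep all preparations, the adjusted p by limma was 5.5e-06 to 0.013. Haspin, a mitotic kinase gene that lies within Itgae, has a probe set of its own. It was at 5.85 to 6.68 in KO-labelled and 5.64 to 5.76 in WT arrays, so it too was higher in every KO-labelled array, by 0.53 (0.82 in KO 1, 0.25 in KO 2; adjusted p = 0.701 by limma). Whether its transcripts touch the Itgae probe set was not tested.

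The other 8 chains did not pass the test, which called 1 of 9 members higher and 0 lower. Over all genes 0.12% were called higher and 0.015% lower. Before adjustment, 4 members were higher with a p under 0.05, namely Itgae, Itgb7, Itgb8 and Itgav, as were 5.65% of all genes and 14.3% of the 1774 genes at least as bright as the dimmest member. That cutoff is the mean of Itgae over all arrays (9.04 log2), which its KO-labelled arrays raise. With no random block, limma called 1 member higher without KO 1 and 7 without KO 2, but the latter fit set only the wide KO 1 arrays against WT and called 5997 genes higher and 7381 lower in all. The median member differed by 0.68 log2 (1.05 in KO 1, 0.41 in KO 2). Over all genes the median was -0.06, but over the 1774 bright genes it was 0.43 (0.78 in KO 1, 0.10 in KO 2). The plot of log2 expression in each array shows the 9 chains side by side.

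**Figure D1:**
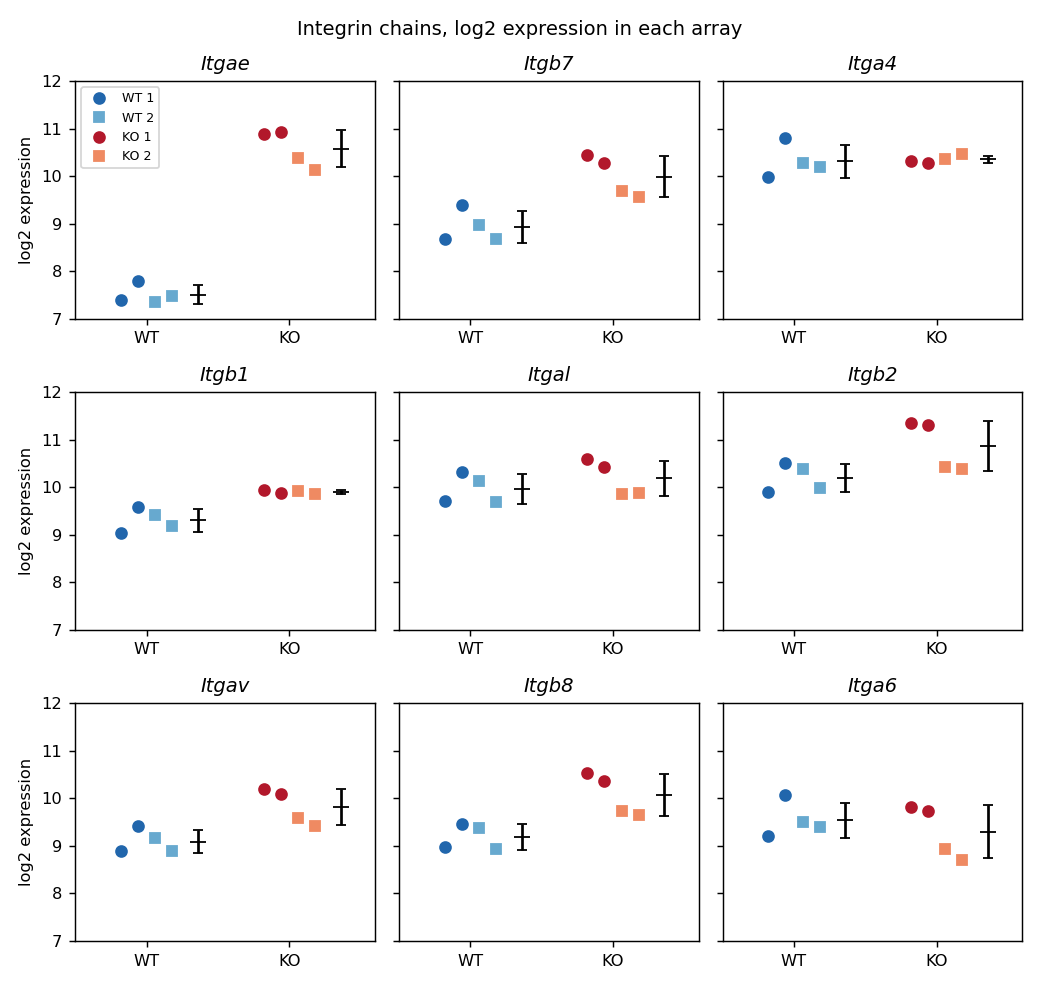
Log2 expression of the 9 integrin chains (vertical axis, shared by all panels and starting at 7) in the 4 WT and 4 KO-labelled arrays; circles are preparation 1 and squares preparation 2, and the black bar gives the mean and SD of 4 arrays. Itgae separates the groups by 2.32 log2 between the nearest arrays, while Itga4 and Itga6 overlap.

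Among the beta chains, Itgb7, the partner of both alpha E and alpha 4, had the largest difference. Its levels were 10.45 and 10.28 in KO 1, 9.68 and 9.56 in KO 2, and 8.67, 9.40, 8.98 and 8.68 in the WT arrays. Every KO-labelled array was above every WT array, but the gap between the nearest was only 0.16 log2. The difference of 1.06 log2 (SE 0.36, adjusted p = 0.581 by limma) did not pass. It was 1.44 in KO 1 and 0.69 in KO 2.

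Itgb8, the beta chain that with alpha v activates latent TGF-beta, stood at 10.54 and 10.36 in KO 1, 9.73 and 9.64 in KO 2, and 8.98, 9.47, 9.38 and 8.94 in WT. The groups did not overlap, with 0.17 log2 between the nearest arrays, and the difference of 0.88 (SE 0.34, adjusted p = 0.701) did not pass. Itgb1, the common partner of alpha 4, alpha 6 and alpha v, was at 9.94, 9.88, 9.93 and 9.86 in the KO-labelled arrays and at 9.03, 9.59, 9.41 and 9.19 in WT. Here both KO preparations lay equally high, 0.61 and 0.60 above the WT mean, and the KO-labelled SD of 0.04 was below the WT SD of 0.25. Its difference of 0.60 (SE 0.29, adjusted p = 0.701) did not pass either. Itgb2, the beta chain of LFA-1 and the other leukocyte integrins, was at 11.36 and 11.30 in KO 1 but at 10.43 and 10.38 in KO 2, among the WT values of 9.89, 10.51, 10.38 and 9.99. Its difference was 0.68 (SE 0.37, adjusted p = 0.701).

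The alpha chains apart from Itgae showed smaller differences or none. Itgav, the alpha v chain, was at 10.19 and 10.09 in KO 1, 9.59 and 9.41 in KO 2, and 8.89, 9.41, 9.17 and 8.89 in WT, so that only KO 2B and WT 1B met. Its difference was 0.73 log2 (SE 0.32, adjusted p = 0.701). Itgal, the alpha chain of LFA-1, was at 10.59 and 10.42 in KO 1, 9.86 and 9.87 in KO 2, and 9.71, 10.31, 10.14 and 9.69 in WT. The KO 2 and WT arrays overlapped for Itgal, and the difference was 0.23 (SE 0.35, adjusted p = 0.745).

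Itga4, the alpha chain of the gut- and VCAM-1-binding receptors, was nearly the same in the 4 KO-labelled arrays, at 10.31, 10.27, 10.35 and 10.46. The WT arrays, at 9.98, 10.80, 10.28 and 10.19, lay on both sides of them, and the difference was 0.03 (SE 0.34, adjusted p = 0.959). Itga6, the laminin-binding alpha chain, was at 9.82 and 9.73 in KO 1 and at 8.94 and 8.70 in KO 2, with WT at 9.21, 10.07, 9.50 and 9.39. The KO 2 arrays were below all 4 WT arrays for Itga6 and the KO 1 arrays within their range, so the preparations differed in sign, at 0.23 and -0.72 from the WT mean. Its difference was -0.25 (SE 0.40, adjusted p = 0.751).

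All KO-labelled arrays lay above all WT arrays for 4 of the 9 members (Itgae, Itgb7, Itgb1 and Itgb8) and below them for 0. Over all genes this held for 6.67% upwards and 2.11% downwards, and upwards for 16.2% of the 1774 genes as bright as the members. Both preparations were above the WT mean for 6 of the 9 members, against 27.6% of all genes and 66.7% of the bright genes, so that the members' share was that of bright genes. The order of arrays within the groups was shared by bright genes in general. WT 1B was the highest WT array for all 9 members and for 89.3% of the bright genes. Both KO 1 arrays were above both KO 2 arrays for 7 members, all but Itga4 and Itgb1, and for 93.0% of the bright genes. The KO 2 arrays, whose spread was near that of WT, were above all WT arrays for the same 4 members, against 16.3% of the bright genes, and below all of them for Itga6 alone, against 4.85%.

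**Figure D2:**
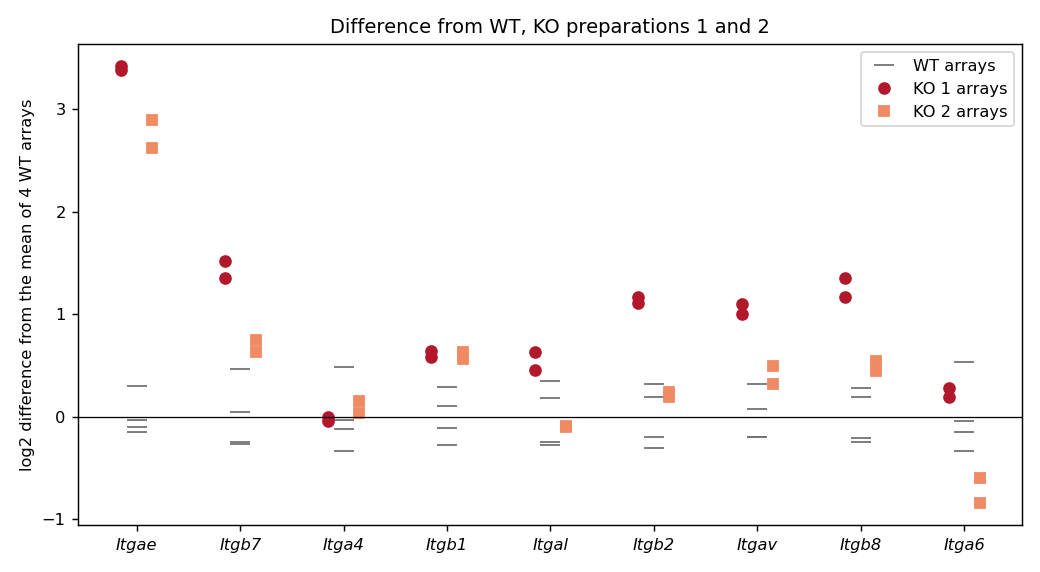
Log2 difference of each array from the mean of the 4 WT arrays (vertical axis) for the 9 chains; circles are KO 1 arrays, squares KO 2 arrays and grey dashes the 4 WT arrays. KO 1 lies above KO 2 for most chains, for example at 1.14 against 0.21 for Itgb2, while Itgb1 is at 0.61 and 0.60.

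The partner chains of a receptor were then compared within each array, which removes a shift shared by both. The level of the alpha chain minus that of the beta chain was taken in log2, and its WT mean was set to 0, since the levels of different probe sets cannot be compared with each other. There were 7 pairs, several of which share a chain. Within WT their SDs were 0.05 to 0.22, against 0.20 to 0.37 for the single chains, although the SD of Itgae minus Itgb7 (0.22) was not below that of Itgae alone (0.20). For 5 of the 7 pairs all KO-labelled arrays lay on one side of all WT arrays, each with p = 0.0286 in a two-sided exact permutation test over 8 arrays (adjusted p = 0.04 over 7 pairs). The same held for 41.9% of all 1572651 pairs that the 1774 bright genes can form, so the lack of overlap is common among such genes. A p of 0.0286 is the smallest that 4 against 4 arrays can give, and 2 preparations against 2 could not go below 0.333.

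Itgae rose beyond its partner Itgb7. Relative to WT, alpha E minus beta 7 was 1.86 and 2.07 in KO 1, 2.14 and 1.99 in KO 2, and 0.16, -0.17, -0.20 and 0.22 in WT, a difference of 2.01 log2. Unlike the level of either chain, this value was as high in KO 2 (2.07) as in KO 1 (1.96). For Itga4, the other partner of beta 7, the value had the opposite sign, with Itga4 itself differing by 0.03 and Itgb7 by 1.06. Alpha 4 minus beta 7 was -1.53 and -1.39 in KO 1, -0.71 and -0.48 in KO 2, and -0.08 to 0.13 in WT, a difference of -1.03.

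The beta 1 pairs did not behave alike. Alpha 4 minus beta 1 was -0.64, -0.62, -0.60 and -0.41 in the KO-labelled arrays against -0.14 to 0.20 in WT, a difference of -0.57 that was similar in both preparations (-0.63 and -0.50). Alpha 6 minus beta 1 was -0.36 and -0.39 in KO 1 and -1.23 and -1.40 in KO 2, against -0.15 to 0.25 in WT. The difference of -0.85 was thus mostly carried by KO 2, where Itga6 was low. Alpha v minus beta 1 was 0.46 and 0.42 in KO 1 but -0.13 and -0.24 in KO 2, with WT at -0.08 to 0.07, and its difference of 0.13 did not pass (exact permutation p = 0.457, adjusted p = 0.457).

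For the receptor that activates TGF-beta, alpha v minus beta 8 was -0.25 and -0.18 in KO 1, -0.04 and -0.13 in KO 2, and -0.10 to 0.05 in WT, so the groups overlapped and the difference of -0.15 did not pass (exact permutation p = 0.0571, adjusted p = 0.0667). For LFA-1, alpha L minus beta 2 was -0.55 and -0.64 in KO 1, -0.34 and -0.27 in KO 2, and -0.07 to 0.05 in WT. The groups did not overlap, with a difference of -0.45.

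**Figure D3:**
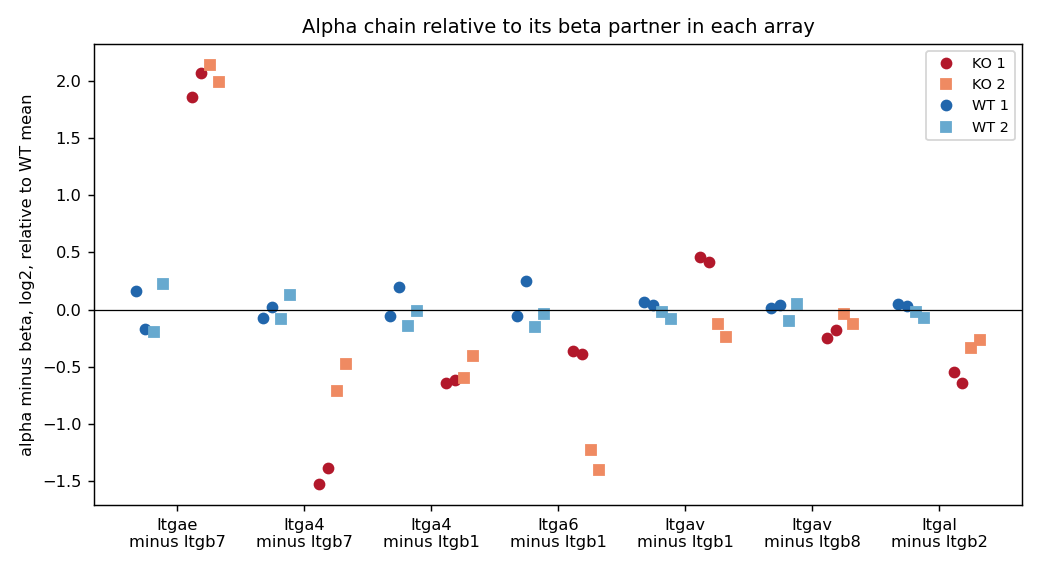
Alpha minus beta chain level in log2 with the WT mean set to 0 (vertical axis) for the 7 partner pairs in each array; circles are preparation 1, squares preparation 2, blue WT and red or orange KO-labelled. Itgae minus Itgb7 is at 1.86 to 2.14 in the KO-labelled arrays, and 4 other pairs lie below WT in all of them.

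The scaling of the arrays moved the single chains more than the pairs. With quantile normalization Itgae differed by 2.96 log2, Itgb7 by 0.79 and Itgb1 by 0.30. Itgb8 was then at 0.61, Itgav at 0.43, Itgb2 at 0.42 and Itga6 at -0.53, and the median member fell from 0.68 to 0.42. With the same mean and SD in each array, Itgb2 was at 0.40, Itga6 at -0.44 and the median again at 0.42. The small differences changed sign with quantile normalization, with Itga4 at -0.27 and Itgal at -0.06, as they did with the same mean and SD (-0.20 and -0.01). Itgae minus Itgb7 was 2.01 to 2.16 over the 4 scalings, and the same 5 pairs kept p = 0.0286 by the exact permutation test.

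**Figure D4:**
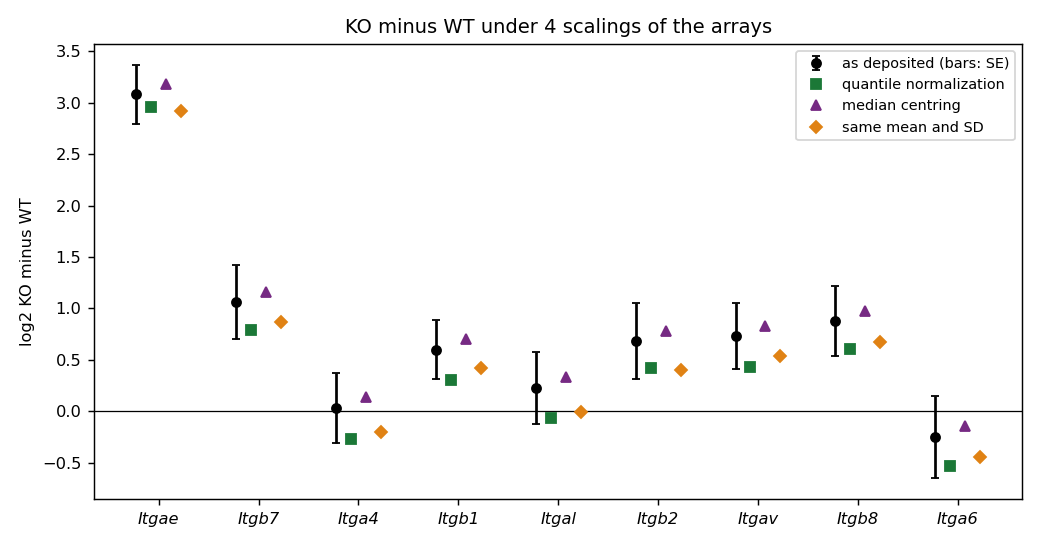
Log2 KO minus WT (vertical axis) of the 9 chains as deposited, with the SE of the fit, and after 3 other scalings of the arrays. Itgae stays between 2.92 and 3.18, while Itga4 and Itgal lie on both sides of 0.

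Sequence before a transcript start is shown for Itgb7, for its partner Itga4, whose own level hardly differed, and for Itgb8, which lay high in all KO-labelled arrays. They were picked after their values were seen. RefSeq sequences (GRCm38.p6) matched 5 of the 9 members; Itgae, Itgal, Itgb2 and Itga6 were not matched. Each run is the 250 bases before a RefSeq start of transcription, 5′ to 3′, at chr15:102231936-102232185 (minus strand) for Itgb7, chr2:79255176-79255425 (plus strand) for Itga4 and chr12:119238277-119238526 (minus strand) for Itgb8. The start used for Itgb7 lies 1470 bases inside the gene as RefSeq bounds it, so that its run is not upstream of the whole gene, while those of Itga4 and Itgb8 begin at the outer end. Capitals mark a match to a motif.

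Itgb7: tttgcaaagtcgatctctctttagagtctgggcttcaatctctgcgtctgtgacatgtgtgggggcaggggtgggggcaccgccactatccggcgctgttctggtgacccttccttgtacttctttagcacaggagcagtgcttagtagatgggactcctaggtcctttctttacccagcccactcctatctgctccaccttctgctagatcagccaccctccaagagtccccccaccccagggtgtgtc

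Itga4: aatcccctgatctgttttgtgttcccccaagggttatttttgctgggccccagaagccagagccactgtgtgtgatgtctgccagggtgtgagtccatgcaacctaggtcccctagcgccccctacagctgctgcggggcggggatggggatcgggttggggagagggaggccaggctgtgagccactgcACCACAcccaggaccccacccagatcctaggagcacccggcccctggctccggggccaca

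Itgb8: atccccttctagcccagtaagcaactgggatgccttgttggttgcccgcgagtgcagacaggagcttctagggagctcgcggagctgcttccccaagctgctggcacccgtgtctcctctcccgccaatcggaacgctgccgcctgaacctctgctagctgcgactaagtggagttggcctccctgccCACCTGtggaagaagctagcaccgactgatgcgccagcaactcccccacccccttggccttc

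The motifs searched on both strands were TTCNNNGAA, the palindrome shared by STAT sites and many BCL6 sites, TGTGGT of RUNX factors, AGATAA of GATA factors and CACCTG, an E-box. Itga4 had a TGTGGT match on the minus strand starting at -60, and 14.0% of the 32851 windows of this length held one. Itgb8 had a CACCTG match at -62, against 17.2% of windows. The window of Itgb7 held none of the 4, and nor did those of Itgb1 and Itgav (the latter from a start 2094 bases inside its gene); TTCNNNGAA and AGATAA were in 7.02% and 9.99% of windows. No matches overlapped, and a match is not a binding site.

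The remaining integrin chains were mostly dim and none passed. Of 18 other chains limma called 0 (2 were higher before adjustment, p under 0.05, a level that 5.65% of all genes reached), with means over the arrays of 5.79 to 8.59 log2 and a median difference of -0.18. Itgb3, the beta chain of the vitronectin receptor and another partner of alpha v, had the largest difference among them. It was at 10.07 and 9.91 in KO 1, 8.34 and 8.46 in KO 2, and 7.88 to 8.04 in WT, so no arrays overlapped, yet the difference of 1.20 (SE 0.38, adjusted p = 0.516) did not pass and was 2.00 in KO 1 against 0.41 in KO 2. Itgb5, also an alpha v partner, differed by 0.60 (adjusted p = 0.701) and Itga5, the fibronectin receptor alpha chain, by -0.35 (adjusted p = 0.701), both with no overlap. Of the 18 chains, 2 lay upwards and 1 downwards without overlap, against 6.67% and 2.11% of all genes. Itgbl1, a secreted beta-like protein, was at -0.36 (adjusted p = 0.701).

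Genes that switch integrins on or tie them to the cytoskeleton did not pass the test. Of 29 measured, limma called 0 (1 was higher before adjustment, p under 0.05, against 5.65% of all genes), and the median difference was 0.23 (0.50 in KO 1, -0.01 in KO 2). Vcl (vinculin) differed by 0.61 and the GTPase gene Rap1b by 0.74, both without overlap. Such separation upwards held for 3 of the 29 genes, against 6.67% of all genes. Fermt3, which encodes the kindlin of blood cells, differed by 0.65 and the adaptor Skap2 by 0.55, the latter with 1.17 in KO 1 and -0.06 in KO 2.

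Of 17 measured integrin ligands, 1 was called higher and 0 lower, against 0.12% and 0.015% of all genes. The called gene was Lamc1, the laminin gamma 1 chain, part of the ligands of alpha 6 beta 1. It was at 10.69 and 10.54 in KO 1, 10.04 and 9.94 in KO 2, and 8.25, 8.52, 8.43 and 8.16 in WT, a rise of 1.96 log2 (SE 0.28, adjusted p = 0.0143 by limma). The call was lost after median centring (adjusted p = 0.117 by limma), without WT 2B (0.0504), and without preparation WT 1 (0.295) or WT 2 (0.999). Over the 21 alternatives that keep all preparations, the adjusted p was 2.4e-04 to 0.117. Fn1 (fibronectin) differed by 0.68, Icam1 by 0.43 and Tgfb1, the cargo of the latent complex that alpha v beta 8 opens, by 0.70. None of these passed. With Lamc1 they were the 4 of 17 ligands whose groups did not overlap, all upwards, against 6.67% of all genes upwards. The list median was -0.11.

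TGF-beta is a known inducer of Itgae in T cells, and RUNX3 is a factor known to act on it. Of 16 measured genes of TGF-beta activation and response limma called 0 (4 were higher before adjustment, p under 0.05, against 5.65% of all genes and 14.3% of the bright genes), with a median of 0.38, of 0.78 in KO 1 and of 0.07 in KO 2. Over the bright genes these medians were nearly the same, at 0.43, 0.78 and 0.10, but the 2 sets are not alike in level. The gene means of the list ran from 6.49 to 10.09 log2, most of them below the bright cutoff of 9.04. Pmepa1, a TGF-beta target, differed by 0.84 (SE 0.30, adjusted p = 0.622), Runx3 by 0.53 (adjusted p = 0.701) and Furin, the protease that cleaves pro-TGF-beta, by 0.57 (adjusted p = 0.701), each with no overlap of the groups. Groups did not overlap for 4 of the 16 genes, all upwards, against 6.67% of all genes and 16.2% of the bright genes upwards. The receptor Tgfbr1 was at 10.47 and 10.35 in KO 1 but at 8.78 and 8.66 in KO 2, next to 8.20 to 8.75 in WT (adjusted p = 0.695).

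The genes whose levels followed Itgae most closely over the 8 arrays were Ccr2 (Pearson r = 0.996), a chemokine receptor, Axl (0.993), a receptor tyrosine kinase, Lamc1 (0.993), the lectin-like receptor Klrg1 (0.992) and Dst (0.991), a cytoskeletal linker. These correlations describe 8 arrays of 4 preparations that share the same contrast of groups. The differences themselves varied widely in size, from 4.09 log2 for Klrg1 to 0.53 for Dst, the latter not past the test (adjusted p = 0.676), and Axl also missed it (1.31, adjusted p = 0.0593).

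Alpha E is also carried by CD8 T cells and some dendritic cells, so markers of other cells were read beside Itgae. Of the 4 CD8 T cell, 7 dendritic cell, 5 NK cell and 5 mast cell genes measured limma called 0, also before adjustment (p under 0.05), and 0 had KO-labelled arrays that were all above WT. Of all genes, 0.12% were called higher, 5.65% were higher before adjustment and 6.67% had no overlap upwards. Lists this short would hold few genes at those shares, so the counts of 0 decide little. The mean level of the CD8 list was 6.73 to 7.05 in KO-labelled and 6.89 to 7.14 in WT arrays, and that of the dendritic list 6.20 to 6.63 and 6.33 to 6.70. The B cell list (5 genes) was at 6.08 to 6.46 and 6.15 to 6.48, the NK list at 5.45 to 5.67 and 5.65 to 5.74, the mast cell list at 5.27 to 5.62 and 5.38 to 5.76 and the erythroid and platelet list (3 genes) at 6.21 to 6.72 and 6.33 to 6.63. The macrophage list (5 genes) was at 6.11 to 6.38 and 6.06 to 6.39, with Lyz2 alone higher in all KO-labelled arrays. The epithelial and stromal list (7 genes) was at 7.54 to 7.65 and 7.56 to 7.78, but its member Epcam, an adhesion molecule of epithelia, was at 8.95 and 8.76 in KO 1, 7.06 and 7.07 in KO 2, and 6.49 to 6.68 in WT (adjusted p = 0.423). Its part in the Itgae result was not tested.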

How the data were processed

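Total RNA of stimulated mouse Tregs was measured on 8 Affymetrix arrays. The deposited values are log2 expression per probe set, which the authors computed by RMA with Partek software, as the submitters' processing notes list; no versions are stated there. RMA commonly corrects background, evens out distributions and summarises probes, yet the arrays kept unequal spreads. The table held 28768 probe sets with 0 values missing and 0 unused columns, and was used as deposited. Names came from the platform annotation: 21771 probe sets had 1 symbol, 1557 several and 5440 none in that table. The set with the highest mean stood for each of 19937 genes.

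The genotypes were compared by limma 3.58.1 (R 4.3.3, variance trend), with the labelled preparation as a random block (correlation 0.617), and Benjamini-Hochberg adjustment over all genes, called at an adjusted p under 0.05. Partner pairs were tested by exact permutation (scipy 1.17.1). Coordinates are those of the RefSeq table. The alternatives were other treatments of preparations, letters, variance and weights, scalings, a filter at log2 6, other probe set choices and arrays left out. The members, lists and tests were chosen with earlier results of these data known. Named were all members, the called genes of each list and up to 4 more by smallest p, and the 5 genes most correlated with Itgae; Epcam, Lyz2 and Haspin were named after their values were seen.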

Additional observations from a re-analysis of the deposited data

How the results depend on the processing

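Of 27 alternatives, 26 kept the Itgae call, and the value without preparation WT 2 was 2.98 (adjusted p = 0.218). Members called higher numbered 3 with the preparation number as a replicate block (Itgae, Itgb7 at an adjusted p of 0.021 and Itgb8 at 0.0442), 5 without preparation KO 1, 7 without KO 2 with or without the random block and 0 without WT 2; 1 was called lower without KO 1. Without KO 1 or KO 2 the estimated correlation of the random block was -0.629 or -0.642, and those fits called 1465 and 16900 genes in all, so 2 fits with no random block were added after the data were seen. The deviations of preparation 1 from its group correlated at 0.416 between KO and WT over genes, but the labels do not say that a number is shared, so the block result is given here only; that fit called 677 genes in all. Differences near 0 turned. Itga4 was -0.27 and -0.20 after quantile normalization and with the same mean and SD, -0.02 without KO 2 (both fits), -0.04 without WT 2, and -0.16 to 0.23 with 1 array left out. Itgal was -0.06 and -0.01 under the same scalings and -0.09 without KO 1 (both fits), and Itga6 was 0.23 without KO 2 (both fits). The cause was not tested. Median centring moved the median difference over all genes from -0.06 to 0.04, and quantile normalization to -0.01. All 9 members have 1 probe set, so averaging probe sets left their differences as they were. With 1 array left out, the pair test cannot reach 0.05 and values alone were compared; Itgae minus Itgb7 was then 1.95 to 2.09. The number of arrays limits the precision.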
